A study of Rattus norvegicus with 2 samples.

Results

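Cell adhesion genes of the cadherin, protocadherin, contactin, neurexin, neuroligin, CADM, NCAM and L1 families were examined in differentiating rat oligodendrocytes after knockdown of the chaperone HSC70. They were chosen by symbol alone (Cdh, Pcdh, Cntn, Cntnap, Nrxn, Nlgn and Cadm genes with Ncam1, Ncam2, Nrcam, L1cam and Chl1), which gave 92 of the 18049 genes in the deposited table. The cells were wild-type oligodendrocyte precursor cells (OPCs) isolated by immunopanning from the cortex of rat pups of postnatal days 2 to 4. They were electroporated with an siRNA, either scrambled (siSCR) or directed at Hsc70 (siHsc70). Both groups were then differentiated with 60 nM of the thyroid hormone T3, without PDGF-AA, bFGF and NT3, and the design text gives day 2 and the name immature oligodendrocytes. Each group is 1 library of total RNA, so no test between the groups was possible and no p-value is given. The differences below describe these 2 libraries, and the labels do not say how many cultures or pups went into each.

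Classical cadherins are calcium-dependent adhesion proteins whose extracellular repeats bind the same cadherin on a neighbouring cell. Their cytoplasmic tails bind catenins and, through them, actin. Protocadherins, the largest branch of the cadherin superfamily, include a clustered set (alpha, beta and gamma) that gives single neurons distinct surface identities. Contactins, NCAM and L1 proteins are immunoglobulin-domain adhesion molecules, and neurexins and neuroligins bind each other across synapses. Oligodendrocyte precursors receive synapses from axons, and during differentiation their surface is rebuilt for contact with axons and for the paranodal junctions of myelin.

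The siHsc70 library carried less of the targeted transcript: Hspa8, which encodes HSC70, was at 1399 CPM (read counts scaled to a common library total) in siSCR against 507 CPM in siHsc70. Total estimated counts were 19085587 for siSCR and 18130768 for siHsc70 after rounding. Of 12 oligodendrocyte lineage markers, 12 were present in both libraries, and 8 were lower by 2-fold or more and 0 higher by 2-fold or more in siHsc70. Their summed level was 8348 CPM in siSCR against 3042 CPM in siHsc70. In bulk RNA, fewer cells of a type and less RNA per cell cannot be told apart. The other markers were at summed levels of 481 and 399 CPM for 15 neuronal genes, 3887 and 3412 CPM for 9 astrocyte genes, and 53.7 and 120 CPM for 9 fibroblast and mural genes (siSCR and siHsc70 in each case). They were at 38.3 and 49.5 CPM for 5 Schwann cell genes, 9.46 and 6.95 CPM for 5 endothelial genes, and 1.40 and 0.556 CPM for 4 microglial genes. Sums hide opposite movements: 6 of the 9 astrocyte genes were higher in siHsc70 by any amount (median difference in log2(CPM + 1) of 0.28, or 0.0082 on the same scale with the deposited TPM), while Gfap was at 1416 and 667 CPM. Of 14 neuronal genes with a mean of 1 CPM or more, 7 were lower and 7 higher by any amount, from Dcx (33.2 and 6.23 CPM) to Gad2 (4.89 and 10.6 CPM). The excitatory neuron marker Slc17a7 had 3 reads in siSCR and 0 in siHsc70, and the microglial marker Aif1 had 0 in siSCR and 1 in siHsc70.

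Of the 92 adhesion genes, 72 averaged 1 CPM or more across the 2 libraries and are called measured. Differences were taken as log2(CPM + 1) in siHsc70 minus siSCR, and a difference of 1 or more on that scale is called 2-fold or more. Folds given for single genes are ratios of CPM, with 95% intervals (Clopper-Pearson) that cover counting error only. In siHsc70, 12 of the 72 measured genes were lower by 2-fold or more (16.7%) and 0 were higher by 2-fold or more. Over all 13518 measured genes of the series, the shares were 5.14% lower and 2.29% higher. Lower by any amount were 54 of the 72 genes (75%), against 50.3% of all measured genes. At a 1.5-fold size 27 of the 72 were lower and 1 higher, against 12% and 9.65% of all measured genes. The median difference was -0.41 for the adhesion genes and -0.0034 for all genes. With the deposited TPM (transcript abundance scaled for length and library) the median of all genes shifted to -0.13, and 795 genes were then lower by 2-fold or more and 189 higher, against 695 and 310 in CPM. On that scale 13 adhesion genes were lower by 2-fold or more and 0 higher, with a median of -0.45. The counting interval excluded a ratio of 1 for 50 of the 72 genes, of which 42 were lower and 8 higher, and included it for 22. The 20 adhesion genes below the minimum were at most at 1.46 CPM in either library, with 0 reads for 5 of them in siHsc70 and for Pcdh12 in siSCR. A count of 0 allows up to 0.156 CPM in siSCR against 0.167 CPM in siHsc70.

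The 92 adhesion genes together held 0.583% of the counts in siSCR and 0.488% in siHsc70. Compared per length, by deposited TPM, a small set of them was the most abundant in both libraries. In siSCR the order began with Cadm4 at 453 TPM, Pcdhgc3 at 435 TPM and Cdh2 at 378 TPM. These were followed by Cntn1 at 211 TPM, Pcdhgc5 at 190 TPM and Cdh13 at 178 TPM. In siHsc70 the order was Pcdhgc3 (444 TPM), Cdh2 (427 TPM), Pcdhgc5 (248 TPM), Cadm4 (233 TPM), Cdh13 (197 TPM) and Cntn1 (159 TPM). Thus the same 6 genes led in both libraries, with Cadm4 moving from rank 1 to rank 4. Ncam1 moved from rank 8 (161 TPM) to rank 12 (40.7 TPM). The position of Pcdhgc5 rests on a short gene model: its count and FPKM imply a length of 0.49 kb, against 4.51 kb for Pcdhgc3. Both genes have counts that are not whole, so reads shared with other genes also make their positions uncertain.

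**Figure D1:**
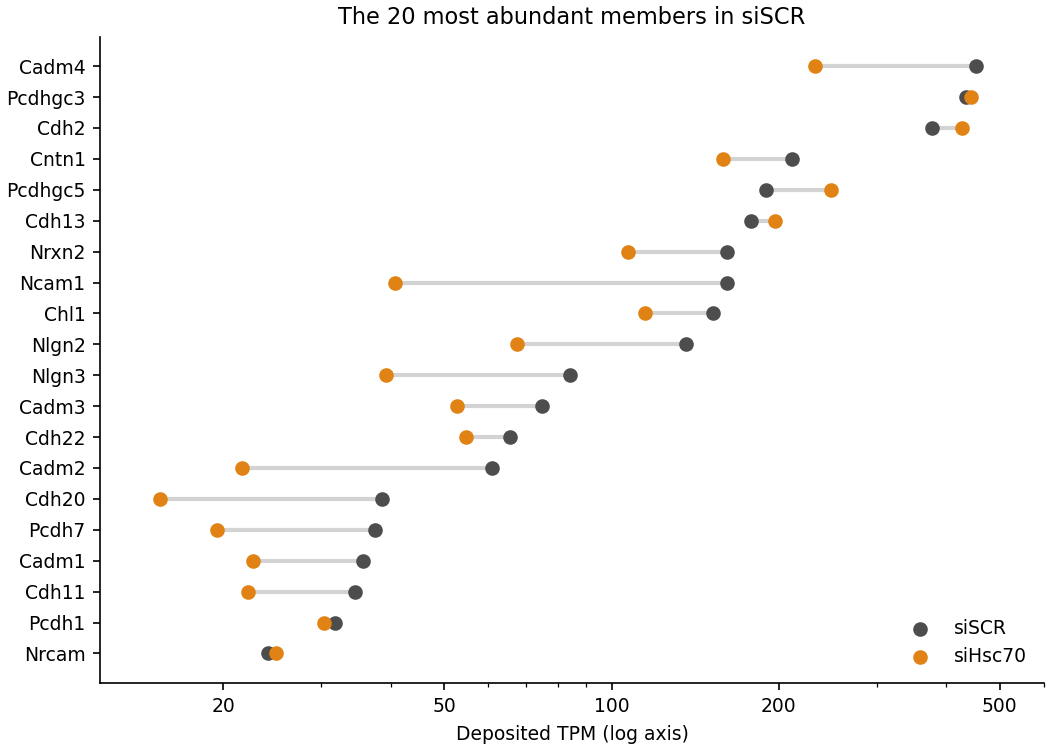
Deposited TPM (log axis) of the 20 adhesion genes most abundant in siSCR, with 1 point for the siSCR library (grey) and 1 for the siHsc70 library (orange). Cadm4, Ncam1, Nlgn2, Nlgn3, Cadm2 and Cdh20 were lower in siHsc70, while Pcdhgc3, Cdh2, Cdh13, Pcdhgc5 and Nrcam were slightly higher.

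**Figure D2:**
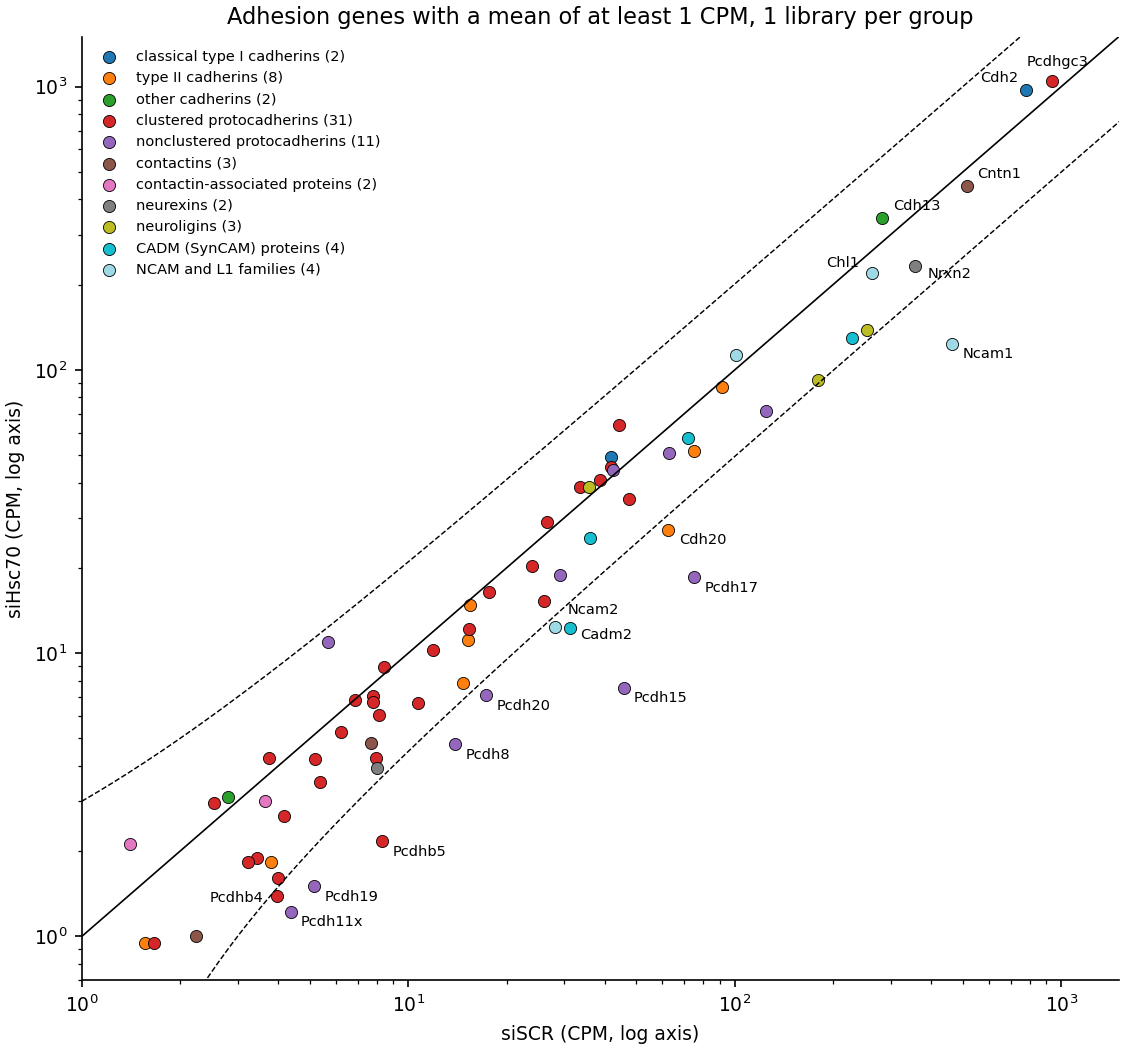
CPM of the 72 measured adhesion genes in siSCR (horizontal, log axis) and siHsc70 (vertical, log axis), coloured by subfamily with the number of genes in brackets. The solid line marks equal levels and the dashed lines a difference of 1 in log2(CPM + 1). The 12 genes below the lower dashed line are labelled, none lies above the upper one, and the other labels mark genes with a mean above 200 CPM.

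The NCAM genes were lower in siHsc70. Ncam1, the carrier of polysialic acid on migrating precursors, was at 463 CPM in siSCR against 124 CPM in siHsc70, a 3.74-fold difference (3.57 to 3.92). Its relative Ncam2, which lacks that modification, was at 28.2 and 12.4 CPM, 2.28-fold lower in siHsc70 (1.94 to 2.67). The L1 family was closer to equal. Chl1, the close homologue of L1, was at 264 CPM in siSCR against 220 CPM in siHsc70, 1.20-fold lower (1.15 to 1.25). Nrcam, which helps to gather sodium channels at nodes of Ranvier, was at 101 and 113 CPM, 1.12-fold higher (1.06 to 1.197). L1cam itself was below the minimum, with 21 and 13 reads. Summed over the 5 genes, the level was 857 CPM in siSCR against 470 CPM in siHsc70, a difference made mostly by Ncam1. The enzymes that add polysialic acid to NCAM belong to a list of 10 shedding and polysialylation genes, of which 9 were measured. In that list 1 gene, the protease gene Bace1, was lower by 2-fold or more (60.8 against 29.5 CPM) and 0 were higher. Over all measured genes the shares were 5.14% lower and 2.29% higher. With upper-quartile factors 0 genes of the list were lower by 2-fold or more. St8sia4, the polysialyltransferase gene with a row in the table, was at 1.04 CPM in siSCR against 1.95 CPM in siHsc70, 1.87-fold higher (1.05 to 3.42). The list's median of 0.11 was -0.11 with the deposited TPM.

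Nonclustered protocadherins were mostly lower in siHsc70. Of 11 measured genes 6 were lower by 2-fold or more, against 5.14% of all measured genes, and the median of the 11 was -1.17. That median was -0.91 with the deposited TPM, and 9 of the 11 genes were lower by any amount. Pcdh15, known from the tip links of hair cells and also expressed by oligodendrocyte precursors, had the largest fold of all measured adhesion genes. It was at 45.7 CPM in siSCR against 7.56 CPM in siHsc70, 6.04-fold lower (5.04 to 7.29). Its tip-link partner Cdh23 was at 2.81 and 3.11 CPM, within counting error. Pcdh17, of the delta-2 group, was at 75.1 CPM in siSCR against 18.6 CPM in siHsc70, 4.04-fold lower (3.59 to 4.57). Pcdh8, of the same group, was at 13.9 and 4.78 CPM, 2.91-fold lower (2.28 to 3.76). Pcdh19, a delta-2 gene on the X chromosome, was at 5.15 and 1.501 CPM, 3.43-fold lower (2.22 to 5.46). With the deposited TPM, whose values for it are near the pseudocount, Pcdh19 differed by -0.75 and missed the 2-fold size.

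The remaining lower genes of this subfamily were Pcdh11x, of the delta-1 group, at 4.37 and 1.22 CPM (3.57-fold; 2.21 to 5.995), and Pcdh20 at 17.3 and 7.12 CPM (2.43-fold; 1.98 to 3.01). Other delta protocadherins differed less. Pcdh7 was at 125 CPM in siSCR against 71.7 CPM in siHsc70, 1.74-fold lower (1.63 to 1.87), and by length it was the most abundant of the subfamily in siSCR, at 37.5 TPM. Pcdh10 was at 29.2 and 18.9 CPM, and Pcdh9 at 63.0 and 50.8 CPM. Pcdh1 was at 42.3 and 44.5 CPM, within counting error. Pcdh18 went the other way, from 5.67 CPM in siSCR to 10.9 CPM in siHsc70, 1.93-fold higher (1.52 to 2.47), and it had the highest difference of the 72 genes, 0.84. Within the delta-2 group, then, Pcdh8, Pcdh17 and Pcdh19 were lower by 2-fold or more, Pcdh10 was lower by less, and Pcdh18 was higher.

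The stretch upstream of the annotated start is shown for 5 of the 6 nonclustered protocadherins lower by 2-fold or more. The 6 were picked for being lower in these data, and 5 of them matched the RefSeq promoter table (build GRCr8). Each line gives 250 bases, 5′ to 3′, ending at the base before the annotated start, which need not be the start used in these cells. Capitals mark ACAAAG on either strand (CTTTGT when read in reverse), the core letters of SOX factor motifs. The search was chosen with the low level of Sox10 in siHsc70 known (563 CPM in siSCR, 98.9 CPM in siHsc70).
Pcdh15 (chr20:14824799-14825048, minus strand): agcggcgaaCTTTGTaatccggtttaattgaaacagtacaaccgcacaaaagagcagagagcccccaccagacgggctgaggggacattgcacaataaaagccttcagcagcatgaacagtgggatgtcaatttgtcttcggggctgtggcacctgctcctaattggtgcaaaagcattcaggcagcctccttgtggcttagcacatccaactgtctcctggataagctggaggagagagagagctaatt
Pcdh17 (chr15:66632892-66633141, plus strand): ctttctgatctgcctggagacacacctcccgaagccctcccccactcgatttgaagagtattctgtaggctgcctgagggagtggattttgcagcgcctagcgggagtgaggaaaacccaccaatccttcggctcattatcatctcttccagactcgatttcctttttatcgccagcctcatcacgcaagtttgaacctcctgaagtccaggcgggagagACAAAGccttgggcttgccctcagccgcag
Pcdh8 (chr15:61612091-61612340, minus strand): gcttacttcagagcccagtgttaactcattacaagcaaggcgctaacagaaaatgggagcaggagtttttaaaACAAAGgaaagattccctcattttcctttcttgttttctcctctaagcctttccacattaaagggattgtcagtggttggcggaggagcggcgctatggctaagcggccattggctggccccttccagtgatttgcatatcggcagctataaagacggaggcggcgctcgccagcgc
Pcdh20 (chr15:70840299-70840548, minus strand): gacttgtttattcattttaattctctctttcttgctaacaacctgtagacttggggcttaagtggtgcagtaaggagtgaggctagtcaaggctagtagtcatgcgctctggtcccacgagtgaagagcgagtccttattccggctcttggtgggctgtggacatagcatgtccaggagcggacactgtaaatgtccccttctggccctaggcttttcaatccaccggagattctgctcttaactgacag
Pcdh11x (chrX:90278985-90279234, plus strand): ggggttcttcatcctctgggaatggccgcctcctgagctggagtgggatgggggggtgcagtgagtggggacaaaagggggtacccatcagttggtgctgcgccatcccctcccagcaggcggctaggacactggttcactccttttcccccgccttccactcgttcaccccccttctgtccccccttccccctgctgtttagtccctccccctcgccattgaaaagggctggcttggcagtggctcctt
The letters occur once each in Pcdh15, Pcdh17 and Pcdh8, starting 241, 30 and 177 bases before the annotated start, and do not occur in the windows of Pcdh20 and Pcdh11x. Nor do they occur in those of Cdh20, Cadm2 and Ncam2, which were also lower by 2-fold or more and are not printed. Over windows that also take in the 50 bases after the start, 18.3% of the 27457 genes in the promoter table hold this motif. Among the adhesion genes, 68 had a window and 18 of these held it (26.5%). It was in 5 of the 10 windows of lower by 2-fold or more genes and in 11 of the 44 windows of the other measured genes. Those 5 include the windows of Pcdhb5 and Pcdhb4, related genes of the beta cluster that are not printed. The lower genes were picked from these same data, and the difference between these shares was not tested. A match is only a run of letters, and no binding was measured here.

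Clustered protocadherins are described by cluster, a split into alpha, beta and gamma that follows their gene names. All 35 of their rows have counts that are not whole in at least 1 library, which is the mark of reads divided between genes. Members of the gamma cluster share their last exons, as do those of the alpha cluster, so single rows are uncertain. Of the 57 other adhesion genes 8 have such counts, among them Ncam1, Pcdh15, Pcdh17, Nlgn1 and Nlgn3. Beta genes, which are single-exon genes, were mostly lower, with a median of -0.57. Of 13 measured, 12 were lower by any amount, against 50.3% of all measured genes. Their 17 rows together were at 73.3 CPM in siSCR against 42.6 CPM in siHsc70, 1.72-fold lower (1.57 to 1.88). The members lower by 2-fold or more were Pcdhb5, at 8.32 and 2.17 CPM (3.83-fold; 2.69 to 5.59), and Pcdhb4, at 3.95 and 1.39 CPM (2.84-fold; 1.79 to 4.66). Pcdhb17, the beta gene with the most reads in both libraries, was at 10.7 and 6.67 CPM, 1.605-fold lower (1.27 to 2.03). The exception among the measured beta genes, named after its values were seen, was Pcdhb14, at 2.55 and 2.95 CPM with an interval that included 1.

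The gamma genes lay on both sides of equal levels. Of 17 measured gamma genes 9 were lower by any amount in CPM and 13 with the deposited TPM, 0 passed the 2-fold size in either direction, and the median was -0.0038. The sign of that median depends on the scaling, at -0.12 with the deposited TPM and 0.051 with upper-quartile factors. Summed, the 17 rows were at 1253 CPM in siSCR against 1381 CPM in siHsc70, 1.10-fold higher (1.08 to 1.12). Pcdhgc3, a C-type isoform, held 74.5% of these reads in siSCR and 76.1% in siHsc70. It was at 934 CPM in siSCR against 1050 CPM in siHsc70, 1.12-fold higher (1.10 to 1.15), and at 435 and 444 TPM. Pcdhgc5, another C-type isoform, was at 44.2 and 63.8 CPM, 1.44-fold higher (1.32 to 1.58). The gamma row furthest below 0 was Pcdhga3, at 26.1 CPM in siSCR against 15.2 CPM in siHsc70, 1.71-fold lower (1.48 to 1.99). Among the others with a mean of at least 10 CPM, Pcdhga2, Pcdhgb5 and Pcdhgb7 had intervals that excluded 1, with ratios of siHsc70 to siSCR of 0.845, 0.795 and 1.15. Pcdhga1, Pcdhga7, Pcdhga10, Pcdhga12 and Pcdhgb8 were within counting error. The alpha cluster had 1 row, Pcdha4, at 47.5 CPM in siSCR against 35.1 CPM in siHsc70, 1.35-fold lower (1.22 to 1.501).

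**Figure D3:**
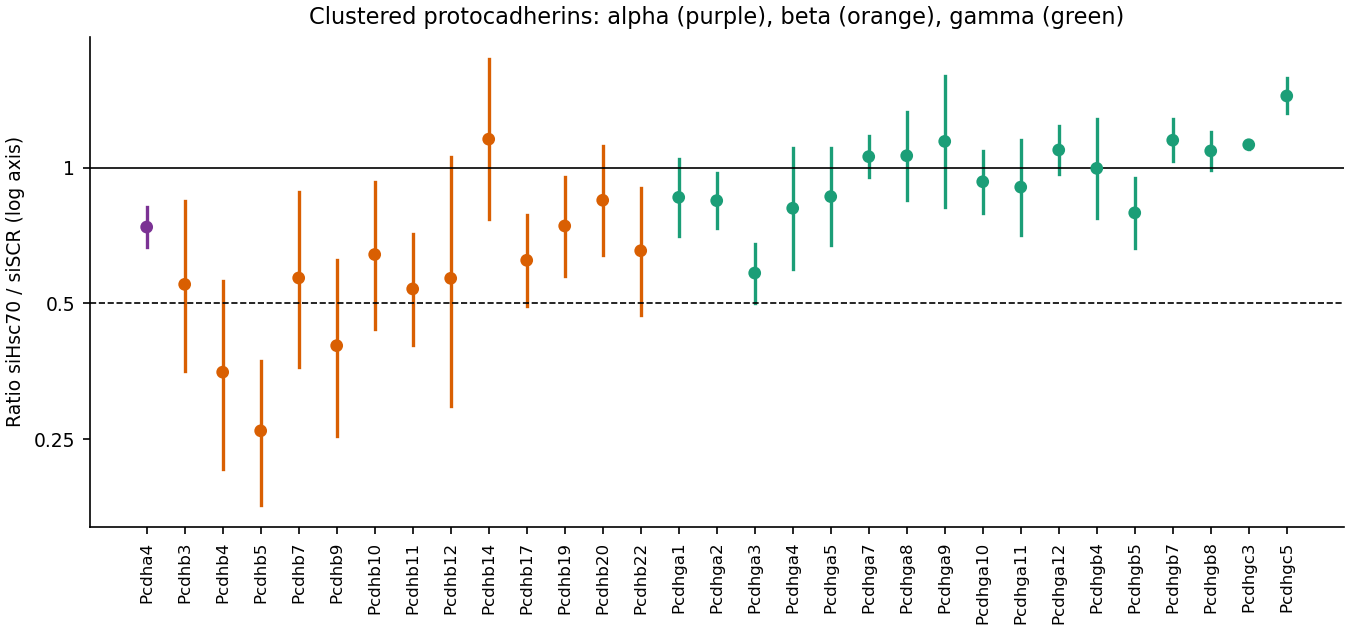
Ratio of CPM in siHsc70 to siSCR (log axis) for the 31 measured clustered protocadherin genes, ordered by cluster and number, with 95% counting intervals as bars. The solid line marks a ratio of 1 and the dashed line 0.5. Of the 13 beta genes (orange) 12 lie below 1, while the 17 gamma genes (green) lie on both sides of it.

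Synaptic partner genes were lower on both sides of the neurexin-neuroligin pair. Nrxn2 was at 356 CPM in siSCR against 234 CPM in siHsc70, 1.53-fold lower (1.47 to 1.59). Nrxn3 was at 8.004 and 3.95 CPM, a 2.03-fold ratio (1.52 to 2.72) that missed the 2-fold size only because of the pseudocount. On the neuroligin side, Nlgn2, known from inhibitory synapses, was at 253 CPM in siSCR against 139 CPM in siHsc70, 1.83-fold lower (1.74 to 1.92). Nlgn3, whose shed ectodomain stimulates growth of precursor-like glioma cells, was at 180 and 91.9 CPM, 1.96-fold lower (1.85 to 2.08). Nlgn1, known from excitatory synapses, was at 35.8 and 38.8 CPM, within counting error. Its share of the neuroligin TPM was 6.88% in siSCR and 13.1% in siHsc70. Neither Nlgn2 nor Nlgn3 reached the 2-fold size in CPM, and both did with the deposited TPM (-1.001 and -1.08).

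The CADM genes, whose products are also called SynCAM or nectin-like proteins, were all lower in siHsc70, with a median of -0.65 over 4 genes. Cadm4, a glial member that binds axonal CADM proteins along the internode, was at 228 CPM in siSCR against 129 CPM in siHsc70, 1.77-fold lower (1.68 to 1.86). Cadm2 was at 31.3 and 12.2 CPM, 2.56-fold lower (2.19 to 3.00), and was the 1 member past the 2-fold size. Cadm1 was at 36.1 and 25.4 CPM, and Cadm3 at 72.0 and 57.4 CPM.

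Of 3 measured contactin genes and 2 measured contactin-associated genes, 0 passed the 2-fold size. Over all measured genes 5.14% were lower and 2.29% higher by that size, so 0 among so few genes is near those shares. Below the minimum mean, Cntn4 had 28 reads in siSCR and 8 in siHsc70, 3.27-fold lower (1.45 to 8.31). Cntnap4, also below it, had 22 and 9 reads, 2.28-fold lower (1.01 to 5.64). Cntn1, the most abundant contactin and a component of the paranodal junction, was at 514 CPM in siSCR against 445 CPM in siHsc70, 1.16-fold lower (1.12 to 1.19). The other contactin genes were low, at 7.69 CPM or less in both libraries. Of these, Cntn3 was at 7.69 and 4.84 CPM, 1.59-fold lower (1.21 to 2.10). Cntnap1, which encodes the axonal paranodal partner of contactin-1, was at 3.64 and 3.00 CPM, and Cntnap2 at 1.40 and 2.11 CPM. Both differences were within counting error, and both genes are better known from neurons. Cntn2 was at 2.23 and 1.00 CPM, a 2.23-fold ratio (1.26 to 4.11) that did not pass the 2-fold size. Together with Nrxn3, the type II cadherin Cdh19 (2.07-fold) and Pcdhb9 (2.48-fold), it makes the 4 genes whose CPM ratio exceeded 2 but whose log2(CPM + 1) did not. These 4 were named after their values were seen.

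The measured type I classical cadherins, Cdh2 and Cdh4, were slightly higher in siHsc70, as was Cdh13, which is not of the classical types. Cdh2, which encodes N-cadherin, was at 779 CPM in siSCR against 970 CPM in siHsc70, 1.25-fold higher (1.22 to 1.27). Cdh4, which encodes R-cadherin, was at 41.8 and 49.4 CPM, 1.18-fold higher (1.07 to 1.30). Cdh13, which encodes the lipid-anchored T-cadherin that lacks a cytoplasmic tail, was at 283 and 343 CPM, 1.21-fold higher (1.17 to 1.26). These 3 genes kept their sign under every scaling tried, the deposited TPM and FPKM included. Type II cadherins were lower instead, with a median of -0.47. By any amount 8 of 8 measured were lower, against 50.3% of all measured genes, and 1 passed the 2-fold size. That gene, Cdh20, was at 62.6 CPM in siSCR against 27.3 CPM in siHsc70, 2.29-fold lower (2.06 to 2.55). Cdh6 was at 14.8 and 7.84 CPM, 1.88-fold lower (1.53 to 2.32), and Cdh11 at 74.8 and 51.7 CPM, 1.45-fold lower (1.33 to 1.57). Cdh10 was at 15.2 and 11.1 CPM. Cdh22, the most abundant type II gene by TPM (65.6 and 54.7 TPM), was at 91.6 and 87.0 CPM and Cdh24 at 15.4 and 14.8 CPM, both within counting error. With upper-quartile factors Cdh24 differed by 0.00099, so the count of 8 of 8 lower did not hold under every scaling.

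**Figure D4:**
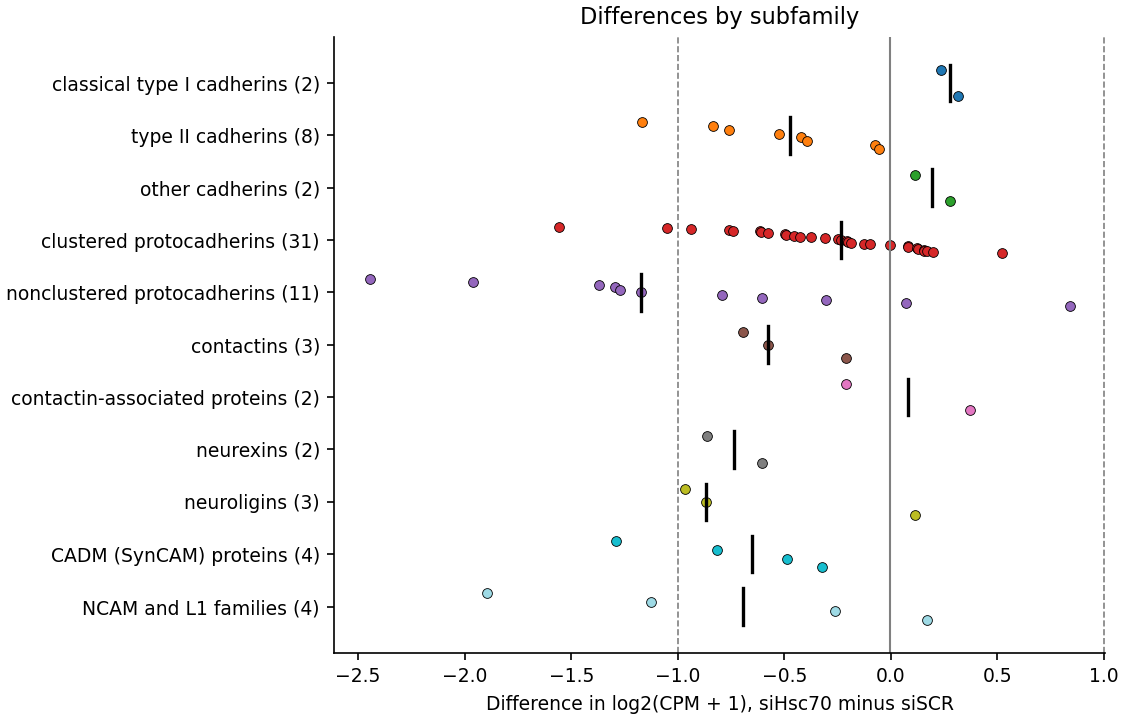
Difference in log2(CPM + 1), siHsc70 minus siSCR, for each measured adhesion gene (points) by subfamily, with the number of genes in brackets and the subfamily median as a black bar. The grey line is the median of all 13518 measured genes and the dashed lines mark differences of -1 and 1. Nonclustered protocadherins spread furthest, from -2.45 to 0.84, and the type I cadherins lie at 0.24 and 0.32.

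The cytoplasmic partners of cadherins differed in both directions. Of 10 measured catenins and linkers, 5 were lower and 5 higher by any amount, and the counting intervals of all 10 excluded a ratio of 1. In CPM 1 was lower by 2-fold or more and 0 higher, against 5.14% and 2.29% of all measured genes. With the deposited TPM 2 were lower. The median was 0.014, or -0.13 with the deposited TPM. The gene past the 2-fold size in CPM was Ctnna2, an alpha-catenin best known from neurons, at 33.0 CPM in siSCR against 14.1 CPM in siHsc70. Of 11 measured genes of other cadherin branches (Fat, Dachsous, Celsr, calsyntenins and desmosomal cadherins), 0 were lower by 2-fold or more. The same shares over all measured genes stand beside this list, and both lists hold too few genes for a firm share. The desmocollin gene Dsc2 was higher, at 5.15 and 12.8 CPM (2.49-fold; 1.96 to 3.18). With the deposited TPM it did not pass the 2-fold size, 1 gene, the calsyntenin gene Clstn3, was lower by 2-fold or more (16.4 and 7.45 TPM), and the list's median of 0.14 turned to -0.0039.

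Several adhesion genes outside these families were also lower. Of 30 other synaptic adhesion genes measured, 10 were lower by 2-fold or more and 1 was higher, with a median of -0.55. For this and the following lists, the shares over all measured genes were 5.14% lower and 2.29% higher. Lrrtm2, encoding a postsynaptic ligand of neurexins, was at 149 CPM in siSCR against 20.6 CPM in siHsc70, 7.24-fold lower (6.497 to 8.09). Slitrk1, which encodes a ligand of receptor tyrosine phosphatases, was at 17.98 and 4.50 CPM. Ntng1, encoding netrin-G1, was higher, at 27.0 and 69.9 CPM (2.59-fold; 2.34 to 2.88). Of 17 other immunoglobulin adhesion genes, 6 were lower by 2-fold or more and 0 higher, with a median of -0.33. Opcml, an IgLON gene, was at 301 and 44.0 CPM, 6.84-fold lower (6.35 to 7.37). Nfasc, whose glial isoform forms the paranodal junction with contactin-1, was at 937 and 198 CPM, 4.73-fold lower (4.56 to 4.90).

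Among 18 measured scaffold genes of synapses and junctions, 3 were lower by 2-fold or more and 0 higher, with a median of -0.38. The shares over all measured genes, 5.14% lower and 2.29% higher, stand beside each list of this paragraph. The smaller lists hold too few genes for a firm share. Apba1, which encodes the adaptor MINT1, was at 14.1 CPM in siSCR against 2.89 CPM in siHsc70, and Dlgap4 was at 159 and 69.1 CPM. Of 11 ankyrin, spectrin and band 4.1 genes, 2 were lower by 2-fold or more and 0 higher, with a median of -0.44. Epb41l2, encoding a membrane skeleton protein, was at 432 and 75.8 CPM, 5.70-fold lower (5.38 to 6.04). Ank3, which encodes ankyrin-G, was at 40.0 and 10.5 CPM. Of 14 measured ligands and coreceptors of contactins, 3 were lower by 2-fold or more and 0 higher, with a median of -0.37. Tnr, whose product tenascin-R binds contactin-1, was at 252 and 17.0 CPM, and Lgi2, encoding a secreted ligand of ADAM proteins, was at 1.87 and 0.334 CPM. Beside these lists and the adhesion genes, 11 of the 12 oligodendrocyte lineage markers given at the outset were lower by any amount, and Olig1 was higher. Whether the difference of the markers bears on the levels of the adhesion genes was not tested.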

How the data were processed

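RNA sequencing of 2 samples, 1 library for siSCR and 1 for siHsc70, was read from 1 table of the whole series. The estimated counts per gene are the authors' values before normalisation, per the file headers, and need not be whole. The deposited FPKM and TPM are scaled for length and depth, per the file headers' names for them. Which aligner, counting program, annotation and strand setting were used is not given in the sources used here. A mouse build, mm39, is named in the submitters' processing notes, while the gene IDs are rat: 90 of the 92 adhesion genes were found by ID in RefSeq (GRCr8), all 90 under the same symbol.

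Counts were rounded and scaled to CPM with TMM factors (1.01 for siSCR, 0.992 for siHsc70) from edgeR 4.0.16 in R 4.3.3. A minimum mean of 1 CPM, a pseudocount of 1 and a 2-fold size were used, and the pseudocount understates differences of low genes. Intervals are Clopper-Pearson (scipy 1.17.1) and treat reads as independent molecules. No test was made. The procedure was tested on simulated counts with counting error alone. That simulation held no spread between cultures and no reads shared between genes, so it does not speak to either. Named are adhesion genes past the 2-fold size or with a mean of at least 10 CPM, and from each partner list up to 2 lower and 2 higher genes past that size, or the gene furthest from 0. Other named genes were chosen for what they are known for or after their values were seen. As alternatives, a second pseudocount, 2 further minimum means, 3 further scalings, the deposited TPM and FPKM, summed protocadherin clusters and a 1.5-fold size were tried. The removal of clustered protocadherins was added after seeing the data. Of the genes whose symbols match the families, 1 is not reported here and is left out of every count of adhesion genes. The genes and lists were chosen with earlier results of these data known.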

Additional observations from a re-analysis of the deposited data

How the results depend on the processing

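No paired analysis was possible because each group has 1 library, and for the same reason no library could be left out. Of the 46 adhesion genes named by the rule on size or level, 40 kept the sign of their difference under every setting run; none of the 12 at least 2-fold lower changed sign. The exceptions in sign were Cdh24, Nlgn1, Pcdh1, Pcdhga7, Pcdhga12 and Pcdhgb8, all within counting error in CPM. With the deposited FPKM, 7 genes were at least 2-fold lower in place of 12, and all 7 (Ncam1, Pcdh15, Pcdh17, Pcdh8, Pcdhb5, Cdh20 and Cadm2) were past that size in every other setting that kept the gene as a row. For the other 5, FPKM values are smaller numbers than CPM, so that a pseudocount of 1 weighs more. The median of the neuroligins was -1.001 with the deposited TPM. With a 1.5-fold size 27 genes were lower and 1, Pcdh18, was higher. Without the clustered protocadherins 10 of 41 measured genes remained past the 2-fold size on the lower side, and the median of the 41 was -0.57. The median of the adhesion genes lay between -0.57 and -0.29 over all settings. Depth limits the genes under 5 CPM most: the interval of Pcdhb4 ran from 1.79-fold to 4.66-fold.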

Other observations

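The table holds 5 rows under a locus name whose gene ID now carries a matching symbol in RefSeq, and these were not counted among the 92. The beta genes Pcdhb16 and Pcdhb15 were at 4.47 and 3.43 CPM in siSCR and at 1.89 and 3.06 CPM in siHsc70. Pcdhb6l, another beta gene, was at 2.08 and 1.39 CPM, the gamma gene Pcdhgb1 at 1.77 and 1.17 CPM, and Cadm1l1 at 0.104 and 0.222 CPM.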
